A study of Mus musculus with 20 samples.

Results

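Rag1, Rag2 and Dntt, the enzymes that act in V(D)J recombination only in lymphocyte precursors, were followed over 20 Illumina expression arrays of mouse thymus grafts, T cell acute lymphoblastic leukaemia (T-ALL), thymus and spleen. The members are 3 of the 20255 genes with a symbol, and they are among the 12831 genes that were measured well enough to be tested. Each was matched by its gene symbol after the symbols of the array annotation had been updated to RefSeq names, and each had 1 probe on the array.

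V(D)J recombination assembles the variable exons of T cell receptor and immunoglobulin genes from separate segments in developing lymphocytes. RAG1, which carries the DNA-cutting site, and RAG2, which regulates it and reads a histone mark of active chromatin, form the recombinase that cuts beside the segments. The product of Dntt, terminal deoxynucleotidyl transferase (TdT), adds bases to the cut ends without a template, and ubiquitous end-joining proteins seal them. In the thymus the genes are expressed at the double-negative and double-positive stages of thymocyte development and are shut off after positive selection, and their expression is used to place T-ALL along this path.

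The study set normal thymus beside thymus grafts with autonomous thymopoiesis and beside T-ALL. By label there were 4 arrays of thymus grafts at 10 weeks, 7 of T-ALL and 3 of tumours called T-ALL_Rag-, all of the F1(WB x B6/Ly5.1) background. The other arrays were 2 of C57BL/6 wild-type thymocytes, 2 of C57BL/6 wild-type splenocytes and 2 of splenocytes of WB hosts. The labels do not explain the mark Rag-, name no deleted allele and do not give the genotype of the hosts. Whether the mark was given for a genotype or from Rag expression is not given in the sources used here, nor is the position of the probes within the genes, so signal from a Rag probe does not check that label. All material was taken in vivo, as single-cell suspensions or sorted cells, and which arrays were sorted is not stated. Whether arrays of a label came from separate mice is not stated either, so p-values measure the spread between arrays, which may be technical. Strain differs along with group wherever grafts or T-ALL are set against wild-type or host arrays.

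Values are the authors' quantile-normalized log2 intensities. Signal counts here as above background from 7.11, which lies 3 SD above the most frequent value of all probes (6.78) and corresponds to 138 in linear units. Intensities of different probes cannot be read as relative amounts of RNA, so levels are compared between arrays for 1 gene at a time.

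Content and label disagreed on several arrays, which bears on every comparison with them. On wild-type thymus 1 the mean of 6 T cell receptor (TCR) complex genes was 9.38, against 12.42 to 13.60 on the grafts, while the mean of 10 granulocyte genes was 14.29, beside 14.34 on wild-type spleen 1. Both host spleen arrays carried a TCR complex mean of 13.19 to 13.25 and a double-positive thymocyte mean of 11.67 to 11.94, in the range of the grafts (10.60 to 12.03). Wild-type spleen 3, too, reached 12.48 for the TCR complex. The mean of 5 B cell genes was 7.08 there, near background for a tissue in which B cells are abundant, and 7.53 to 7.54 on the host spleens. Of these genes Cd79b read 7.25 on wild-type spleen 3, but 9.71 and 9.73 on the host spleens and 11.03 on wild-type spleen 1. Pax5 and Ms4a1 read only 6.97 and 7.25 on wild-type spleen 1. A low mean of the list therefore does not show that B cells were absent. The 6 wild-type and host arrays shared 1 chip that held no graft or T-ALL, so chip and group cannot be told apart there. Among the 14 graft and T-ALL arrays, erythroid genes averaged 7.75 to 13.92. In whole tissue or mixed cells, fewer cells of a type and less RNA per cell cannot be told apart.

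The promoter sequences are shown because the levels of the 3 genes were correlated across the arrays, as described further on, although Dntt lies on another chromosome. Rag1 (chr2:101638252-101649532) and Rag2 (chr2:101624712-101632528) are neighbours that are transcribed towards each other on the GRCm38 build, and Dntt lies at chr19:41029275-41059525. Each window of 300 bases covers the RefSeq start of the gene in GRCm38.p6 and lies mostly upstream of it, at chr2:101649483-101649782 on the minus strand for Rag1, chr2:101624462-101624761 on the plus strand for Rag2 and at chr19:41029025-41029324 on the plus strand for Dntt. Capitals mark matches, on either strand, to the E box CANNTG, the Ikaros core TGGGAA, the GATA motif GATAA and the Runx motif TGTGGT, which are letters bound by families of transcription factors active in thymocytes.
Rag1: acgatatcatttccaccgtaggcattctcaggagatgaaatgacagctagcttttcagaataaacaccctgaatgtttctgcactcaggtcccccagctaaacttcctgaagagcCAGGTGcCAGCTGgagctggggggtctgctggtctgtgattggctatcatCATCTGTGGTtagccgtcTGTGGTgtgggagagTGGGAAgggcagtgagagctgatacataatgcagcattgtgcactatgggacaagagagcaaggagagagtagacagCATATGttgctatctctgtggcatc
Rag2: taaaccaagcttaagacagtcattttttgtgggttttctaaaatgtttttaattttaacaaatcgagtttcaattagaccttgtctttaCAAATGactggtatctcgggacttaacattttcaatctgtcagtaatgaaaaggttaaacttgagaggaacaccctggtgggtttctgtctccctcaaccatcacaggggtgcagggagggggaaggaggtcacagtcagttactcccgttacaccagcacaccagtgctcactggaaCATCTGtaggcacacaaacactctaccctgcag
Dntt: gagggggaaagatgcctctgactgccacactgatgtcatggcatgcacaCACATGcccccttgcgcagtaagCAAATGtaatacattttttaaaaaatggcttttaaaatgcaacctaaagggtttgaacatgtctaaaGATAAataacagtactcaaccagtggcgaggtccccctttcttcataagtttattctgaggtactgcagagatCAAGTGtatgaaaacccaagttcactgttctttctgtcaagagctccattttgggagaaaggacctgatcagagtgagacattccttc

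The Rag1 window held 4 E boxes, 2 Runx matches and 1 Ikaros core match, and its E box CATCTG shares bases with a Runx match. The Rag2 window held 2 E boxes and none of the other letters, and the Dntt window held 3 E boxes and 1 GATA match. E boxes were found in 72.3% of 32851 RefSeq promoter windows of the same length, so having one sets none of the 3 genes apart. The Ikaros core was in 25.6% of the windows, the GATA letters in 25.4% and the Runx letters in 16.8%. A match is a description of these letters and does not show binding.

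Rag1 was above background on 20 of 20 arrays. On the 4 grafts it read 12.44, 12.24, 10.62 and 12.58, on the 7 T-ALL from 9.63 to 12.31 with a median of 10.41, and on the 3 T-ALL_Rag- 10.53, 10.09 and 9.46. T-ALL 1, 4 and 5 were the high tumours, at 12.31, 11.27 and 11.61, and the other T-ALL lay between 9.63 and 10.41. Graft 3 stood below the other grafts and within the range of the tumours. Rag1 read 7.39 and 10.18 on the wild-type thymus arrays, 9.08 and 12.04 on wild-type spleen, and 13.63 and 13.47 on host spleen. The host spleens were thus the highest arrays and wild-type thymus 1, the array rich in granulocyte genes, the lowest. By group mean the order was host spleen (13.55 ± 0.11, SD, n = 2), graft (11.97 ± 0.91, n = 4), T-ALL (10.69 ± 1.04, n = 7), wild-type spleen (10.56 ± 2.09, n = 2), T-ALL_Rag- (10.03 ± 0.54, n = 3) and wild-type thymus (8.79 ± 1.97, n = 2). Host spleen and graft did not overlap, and every other pair of neighbours in this order did.

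Rag2 was the dimmest of the 3 probes and was above background on 14 of 20 arrays. It read 9.49, 8.87, 7.81 and 9.68 on the grafts, 6.82 to 8.72 with a median of 7.80 on T-ALL, and 7.66, 6.93 and 6.82 on T-ALL_Rag-. All grafts were above background, T-ALL 2 and 6 were not, and 1 of the 3 T-ALL_Rag- arrays was. The values were 6.83 and 7.40 on wild-type thymus, 6.97 and 8.22 on wild-type spleen and 8.67 and 8.53 on host spleen. The group means ran from 8.96 ± 0.84 on the grafts over 8.60 ± 0.10 on host spleen, 7.74 ± 0.65 on T-ALL, 7.60 ± 0.88 on wild-type spleen and 7.14 ± 0.46 on T-ALL_Rag- to 7.12 ± 0.40 on wild-type thymus, with the same numbers of arrays. All neighbours in this order overlapped. Because values near background are compressed, differences that involve dim arrays understate the change in Rag2.

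Dntt was above background on 19 of 20 arrays, all but wild-type thymus 1. Its graft values were 12.15, 11.21, 9.74 and 12.44, its T-ALL values ran from 8.34 to 12.44 with a median of 9.66, and the T-ALL_Rag- values were 9.31, 9.00 and 9.95. T-ALL 1, 4 and 5 were again the high tumours, at 12.44, 11.21 and 12.31, and the next was T-ALL 3 at 9.66. Dntt read 6.83 and 9.92 on wild-type thymus, 7.39 and 10.62 on wild-type spleen and 12.49 and 12.13 on host spleen. The group means were 12.31 ± 0.25 on host spleen, 11.38 ± 1.22 on graft, 10.39 ± 1.60 on T-ALL, 9.42 ± 0.48 on T-ALL_Rag-, 9.00 ± 2.28 on wild-type spleen and 8.38 ± 2.18 on wild-type thymus, and all neighbours in this order overlapped.

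**Figure D1:**
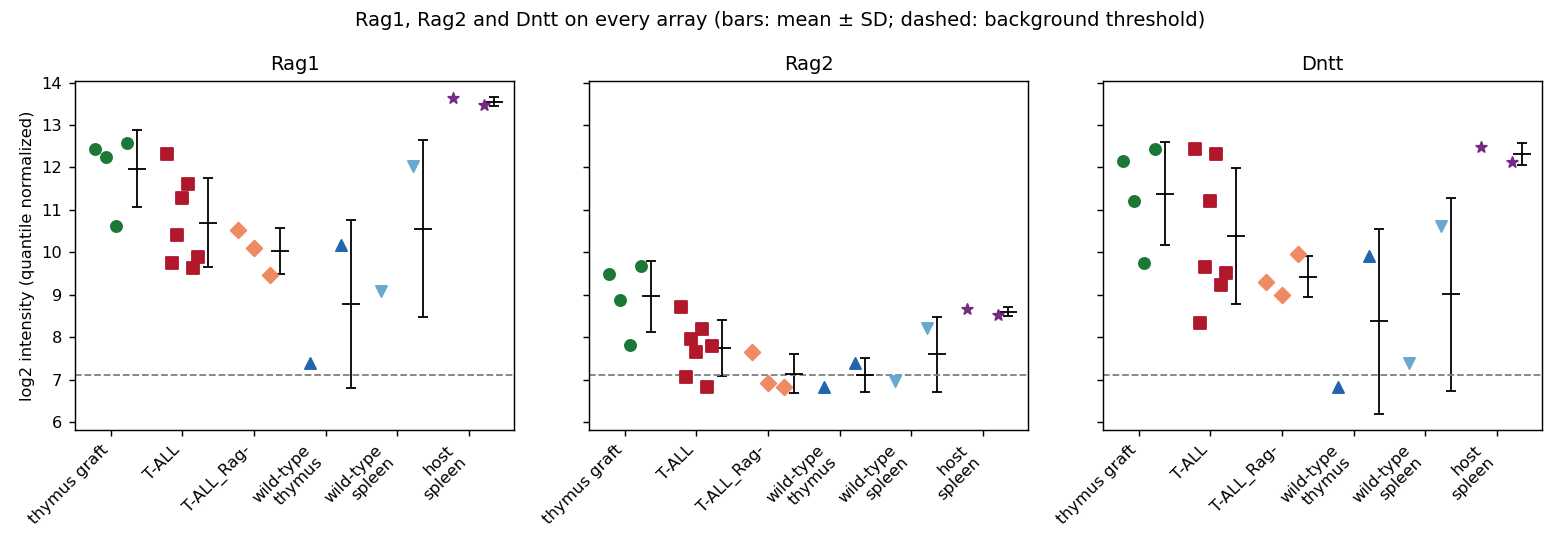
Log2 intensity of Rag1, Rag2 and Dntt on each of the 20 arrays by label, with 1 point per array, group means with SD beside them and the background threshold of 7.11 dashed. All T-ALL_Rag- arrays lie above the threshold for Rag1 and Dntt, and for Rag2 only 1 of them does.

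The tumours labelled T-ALL_Rag- were compared first with the other T-ALL, since their label carries the mark Rag-, which the sources do not explain. Transcript signal for Rag1 and Dntt was plainly present in them: Rag1 ran from 704 to 1479 in linear units, and the lowest Rag1 value was 5.11-fold above the threshold. The lowest Dntt value was 3.71-fold above it. Against T-ALL, Rag1 differed by -0.67 on the log2 scale (SE 0.71, 95% interval -2.17 to 0.83, limma adjusted p = 0.927). Rag2 differed by -0.61 (SE 0.42, interval -1.49 to 0.28, limma adjusted p = 0.911) and Dntt by -0.97 (SE 0.92, interval -2.92 to 0.98, limma adjusted p = 0.925). The groups overlapped for all 3 genes, and none of the differences exceeded the spread between arrays. The intervals still hold both a fall of several fold and a rise, so equal expression is not shown. In this comparison 0% of all genes tested passed an adjusted p of 0.05, and 661 had an unadjusted p below 0.05. Only T-ALL 7 shared a chip with the T-ALL_Rag- arrays. Within that chip the differences were 0.14 for Rag1, with the sign turned, -0.66 for Rag2 and -0.10 for Dntt.

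The grafts were the common reference for the next comparisons, which therefore share 4 arrays. T-ALL_Rag- was below the grafts by 3.85-fold for Rag1, a log2 difference of -1.94 (SE 0.79, interval -3.6 to -0.28, unadjusted p = 0.0244, limma adjusted p = 0.243). For Rag2 the log2 difference was -1.83 (SE 0.46, interval -2.8 to -0.85, unadjusted p = 0.00105, limma adjusted p = 0.123), and for Dntt it was -1.96 (SE 1.02, interval -4.12 to 0.19, limma adjusted p = 0.351). The T-ALL_Rag- arrays were all lower than all grafts for Rag1 and Rag2, and the groups overlapped for Dntt. Such separation, lower in T-ALL_Rag-, was seen for 5.62% of all genes tested. None of the 3 genes passed the adjusted threshold, which 0.0156% of all genes did. Without graft 3 the Rag2 difference was -2.21 with a limma adjusted p = 0.00771, and 1114 genes passed in place of 2. With chip as a random block it was -1.82 with a limma adjusted p = 0.0243, and 583 genes passed. With chip as a fixed term it was -1.89 with a limma adjusted p = 0.656. Fitted to the 2 labels alone, without the spread of the other arrays, the SE was 0.49 for Rag1 and 0.45 for Rag2. The limma adjusted p was then 0.21 for each, so neither passed.

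T-ALL without the mark also had lower means than the grafts for each gene. The log2 difference was -1.28 for Rag1 (SE 0.65, interval -2.64 to 0.09, limma adjusted p = 0.332), a 2.42-fold lower mean. It was -1.22 for Rag2 (SE 0.38, interval -2.02 to -0.42, unadjusted p = 0.00522, limma adjusted p = 0.115) and -1.0 for Dntt (SE 0.84, interval -2.77 to 0.77, limma adjusted p = 0.595). All 3 genes overlapped between the groups. Graft 3, at 10.62 for Rag1, 7.81 for Rag2 and 9.74 for Dntt, lay below T-ALL 1 and T-ALL 5 for each gene. For Rag2, T-ALL 1 at 8.72 was below grafts 1, 2 and 4, so graft 3 alone made the overlap. None passed the adjusted threshold, which 0.32% of all genes did. Within chip 1 the differences were -1.52 for Rag1, -1.26 for Rag2 and -1.53 for Dntt, and within chip 2 they were -0.76, -1.19 and -0.17 in the same order. Rag2 therefore had nearly the same difference on both chips, and Dntt did not. Without graft 3 the Rag2 difference was -1.60 with a limma adjusted p = 0.0137, while 1101 genes passed in place of 41.

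Against wild-type thymus the grafts had 9.09-fold more Rag1 signal, a log2 difference of 3.18 (SE 0.89, interval 1.3 to 5.07, unadjusted p = 0.00235, limma adjusted p = 0.116). The log2 difference was 1.85 for Rag2 (SE 0.53, interval 0.74 to 2.96, limma adjusted p = 0.117) and 3.01 for Dntt (SE 1.16, interval 0.57 to 5.45, limma adjusted p = 0.168). Every graft was above both wild-type thymus arrays for Rag1 and Rag2, a separation seen for 10.6% of all genes tested, and Dntt overlapped. None of the 3 genes passed the adjusted threshold, which 0.0779% of all genes did. The values rest on wild-type thymus 1, which went against its label: without it the differences were 1.79 for Rag1, 1.56 for Rag2 and 1.47 for Dntt, with limma adjusted p = 0.624, 0.527 and 0.77. Without wild-type thymus 3, they were 4.58 for Rag1 (limma adjusted p = 0.0102) and 4.56 for Dntt (limma adjusted p = 0.0467), and 1428 genes passed. This leaves array 1, whose content went against its label, alone in its group, and it is assumed to vary like the arrays of the other groups. Without graft 3 Rag1 differed by 3.64 (limma adjusted p = 0.0253) and Rag2 by 2.23 (limma adjusted p = 0.0155), while 1080 genes passed in place of 10.

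Host spleen had the highest Rag1 values, 1.58 above the grafts on the log2 scale (SE 0.89, interval -0.3 to 3.46, limma adjusted p = 0.748). Rag2 differed by -0.36 (SE 0.53, interval -1.47 to 0.75, limma adjusted p = 0.962) and Dntt by 0.92 (SE 1.16, interval -1.52 to 3.37, limma adjusted p = 0.957). Rag1 did not overlap, a separation that 10.1% of all genes tested showed in this direction, and Rag2 and Dntt overlapped. The adjusted threshold was passed by 0.296% of all genes and by none of the 3. Wild-type thymus differed from wild-type spleen by -1.77 for Rag1 (SE 1.03, limma adjusted p = 0.989), -0.48 for Rag2 (SE 0.61, limma adjusted p = 0.999) and -0.63 for Dntt (SE 1.34, limma adjusted p = 0.999). In that comparison 0% of all genes passed, 670 had an unadjusted p below 0.05, and array 1 of each tissue was the low one. The sign turned without wild-type thymus 1 for Dntt (0.92) and without wild-type spleen 3 for Dntt (0.99) and Rag2 (0.14).

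**Figure D2:**
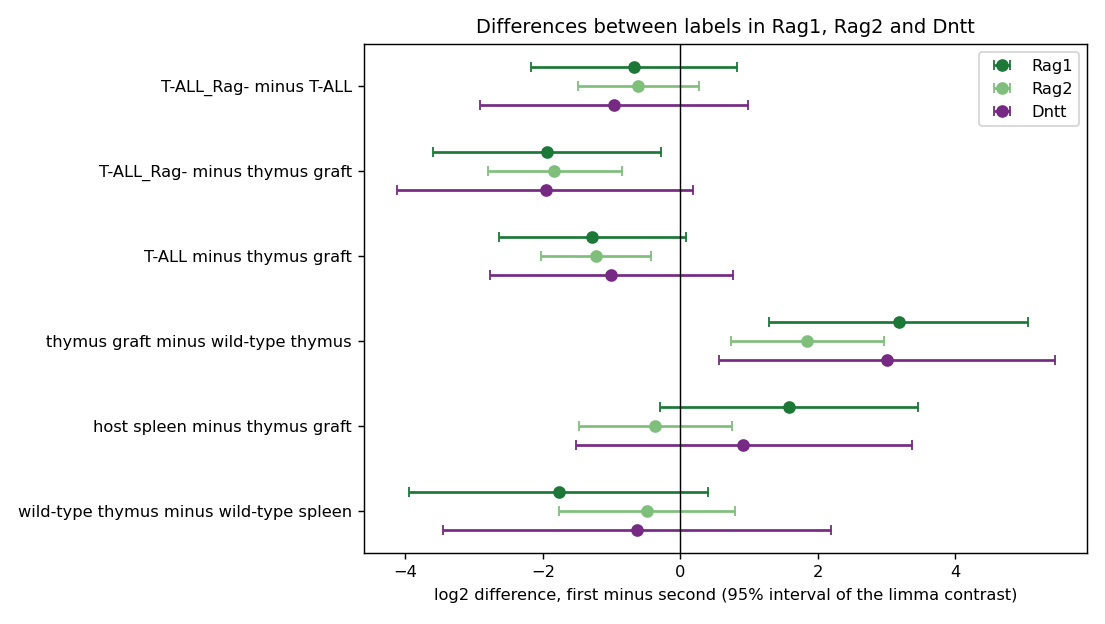
Log2 differences between labels for the 3 genes, first label minus second, as points with the 95% interval of the limma contrast. All intervals of T-ALL_Rag- minus T-ALL include 0, and those of T-ALL_Rag- minus graft exclude 0 for Rag1 and Rag2 before adjustment over all genes.

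The levels of the 3 genes varied together from array to array. Over all 20 arrays Pearson's r was 0.85 for Rag1 and Rag2 (Spearman's rho 0.906), 0.922 for Rag1 and Dntt (rho 0.886) and 0.831 for Rag2 and Dntt (rho 0.796). From 100000 two-sided permutations, the p-values of r adjusted over the 3 pairs were 1.5e-05, 1.5e-05 and 3e-05, and those of rho were 1.5e-05, 1.5e-05 and 7e-05. The unadjusted permutation p of the pairs with Rag1 was 1e-05, the smallest that this number can give. Leaving out the 2 arrays farthest from the median left r at 0.874, 0.891 and 0.822. The arrays share labels, chips and tissue content, so they are not independent draws. Deviations from the group means correlated at 0.843, 0.924 and 0.805 in the same order. Centring on the labels does not remove content that differs within a label, as between wild-type thymus 1 and 3. In labels with 2 arrays the deviations are equal and opposite, so the pair carries only 1 difference.

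The relation was also present in the subsets that could be examined. Over the 14 graft and T-ALL arrays, which leave out every array whose content went against its label, r was 0.928, 0.903 and 0.816 for the same pairs, with adjusted permutation p of 6e-05, 0.000105 and 0.00045. Within the 7 T-ALL r was 0.849 for Rag1 and Rag2, 0.959 for Rag1 and Dntt and 0.806 for Rag2 and Dntt, with adjusted exact permutation p of 0.0232, 0.00298 and 0.0288. The rho values there were 0.893, 0.964 and 0.857. Without T-ALL 1 and 5, r within T-ALL was 0.557 for Rag1 and Rag2 and 0.907 for Rag1 and Dntt. The latter still included T-ALL 4, which was also high for both genes, at 11.27 and 11.21. Rag1 and Dntt correlated at 0.885 over the 10 T-ALL arrays of both labels, with a rho of 0.636 whose adjusted permutation p was 0.0634. Leaving out T-ALL 1 and 5 there left r at 0.643 for Rag1 and Dntt and 0.644 for Rag1 and Rag2. Among the tumours both relations thus rest in part on the high arrays, and a difference between these pairs is not shown. On chip 4, with 6 wild-type and host arrays, r was 0.983, 0.976 and 0.969. The adjusted exact permutation p of 0.00139 for each is the smallest that 6 arrays allow. The TCR complex mean on these arrays ran from 9.38 to 13.25, so the relation cannot be told apart from content there.

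The relation was also examined relative to T cell content. When each gene was expressed relative to the mean of 4 CD3 chain genes on its array, r was 0.44 for Rag1 and Rag2 (adjusted permutation p = 0.0785), 0.792 for Rag1 and Dntt (adjusted permutation p = 0.00012) and 0.301 for Rag2 and Dntt (adjusted permutation p = 0.202). The rho values were 0.675, 0.806 and 0.465, with adjusted permutation p of 0.00216, 0.00015 and 0.0415. The same CD3 mean, which ran from 9.57 to 14.1, was subtracted from both genes of a pair. That shared term can by itself make them correlate, and the permutation does not keep it. These p-values therefore do not show a relation beyond T cell content. On wild-type thymus 1, where CD3 chains were low and Rag2 was at background, this ratio has no meaning for Rag2. That array and the others with Rag2 at background are in the values above, so a weaker relation of Rag2 is not shown. Without wild-type thymus 1 and T-ALL_Rag- 3, r of Rag2 and Dntt was 0.454. Relative to CD3 chains, Rag1 averaged -1.63 ± 0.28 on grafts (n = 4), -2.36 ± 0.80 on T-ALL (n = 7), -2.84 ± 0.58 on T-ALL_Rag- (n = 3) and 0.06 ± 0.06 on host spleen (n = 2). The order of the labels for Rag1 was thus the same with and without this reference among grafts, tumours and host spleens. The difference between T-ALL_Rag- and the grafts was then -1.20 for Rag1 and -1.08 for Rag2, with a limma adjusted p = 0.454 for each.

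**Figure D3:**
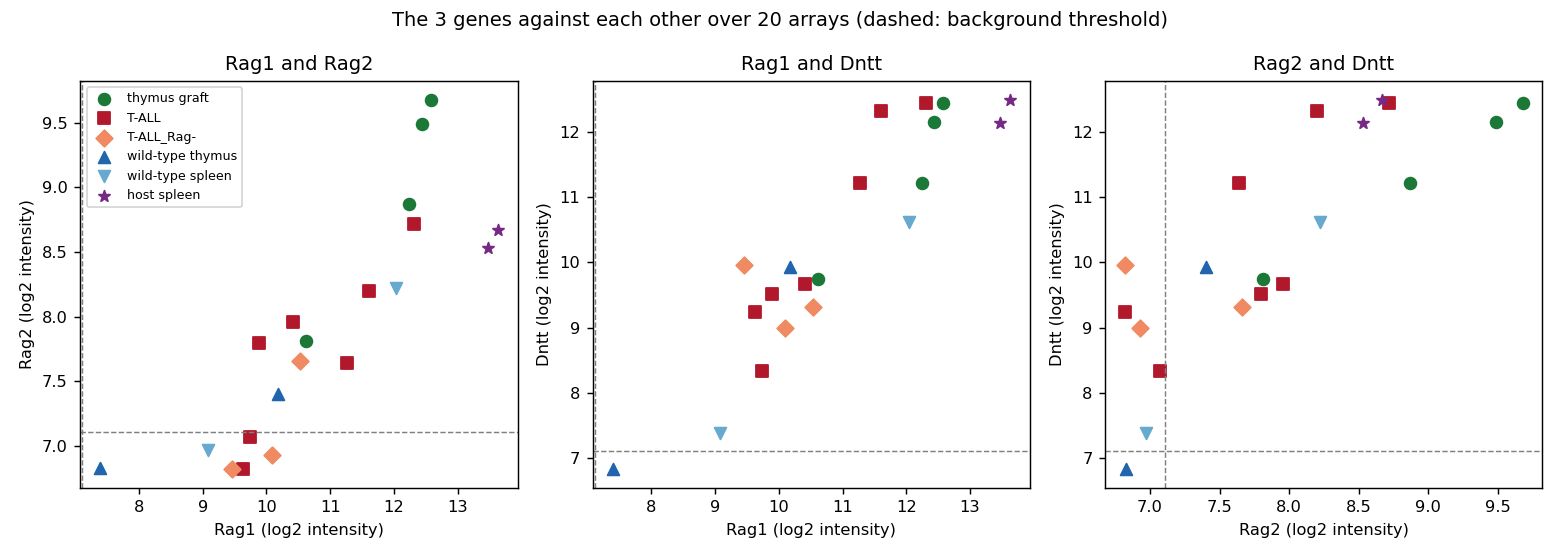
The 3 pairs of genes plotted against each other in log2 intensity, 1 point per array, coloured by label, with the background threshold of 7.11 dashed. Rag1 and Dntt lie along 1 band, while the host spleens, at 8.67 and 8.53 for Rag2, lie below grafts 1, 2 and 4 and above graft 3.

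The balance between the 2 RAG genes was examined within arrays, as the Rag1 value minus the Rag2 value on the same array, a choice made after seeing the data. This difference between probes is not a ratio of RNA amounts, and only its change between arrays can be read. It was 2.95, 3.37, 2.81 and 2.90 on the grafts and 4.96 and 4.94 on the host spleens. Both host spleens lay above every graft, by 1.94 on average, and the exact permutation p of 0.133 is the smallest that 2 against 4 arrays allow (0.533 adjusted over 12 comparisons). After subtraction of the background the difference was 2.00. On T-ALL the value averaged 2.95 ± 0.60 (n = 7) and on T-ALL_Rag- 2.89 ± 0.26 (n = 3), beside 3.01 ± 0.25 on the grafts (n = 4). T-ALL differed from the grafts by -0.06 (exact permutation p = 0.861) and T-ALL_Rag- from T-ALL by -0.06 (exact permutation p = 0.867). These comparisons turned to 0.60 and 0.68 after background subtraction, with Rag2 near background in the tumours, and no direction is given for them.

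**Figure D4:**
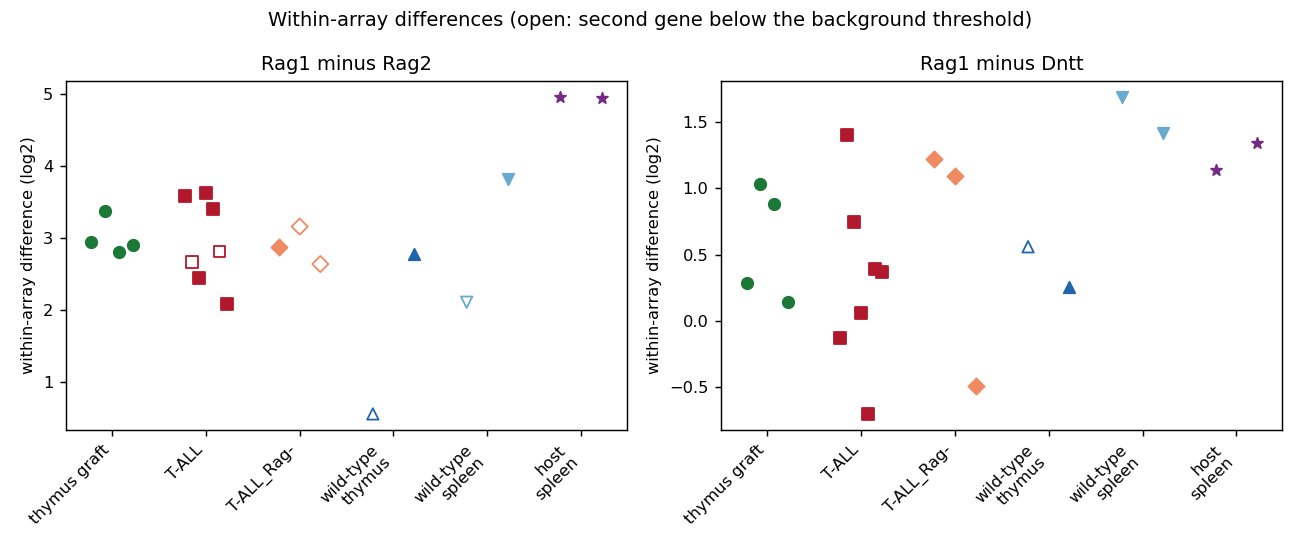
Within-array log2 differences, Rag1 minus Rag2 and Rag1 minus Dntt, 1 point per array by label, open where the second gene was below the background threshold. The host spleens sit at 4.94 and 4.96 for Rag1 minus Rag2, above the grafts at 2.81 to 3.37.

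Rag1 minus Dntt did not separate the labels of the tumours. It averaged 0.58 ± 0.44 on grafts (n = 4), 0.31 ± 0.67 on T-ALL (n = 7), 0.61 ± 0.95 on T-ALL_Rag- (n = 3) and 1.24 ± 0.14 on host spleen (n = 2). The smallest exact permutation p of its 6 comparisons was 0.133, for host spleen against graft, and 0.533 after adjustment over the 12 within-array comparisons. Among T-ALL_Rag- the value was -0.49 on array 3, below 1.22 and 1.09 on arrays 1 and 2.

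Genes most like the members over the 20 arrays were named by Pearson's r among all genes tested. Rag1 was closest to Ppp1r16b (0.956), Sash3 (0.95), Il16 (0.943), Kdm1b (0.936) and Gmcl1 (0.932). Sash3 encodes a lymphocyte adaptor of antigen receptor signalling and Il16 a cytokine precursor. Dntt was the gene of rank 8 for Rag1 and Rag2 that of rank 94. Dntt was closest to Entpd5 (0.966), Ppp1r35 (0.951), Aqp11 (0.943), Il16 (0.942) and Stx6 (0.936), with Rag1 at rank 14 and Rag2 at rank 178. Aqp11, a water channel, was on the list of double-positive stage genes. Rag2 was closest to Mad1l1 (0.947), Gpr162 (0.922), Tsc22d4 (0.921), Cdk20 (0.914) and Wdr78 (0.914), with Rag1 at rank 55 and Dntt at rank 101. Over the 14 graft and T-ALL arrays Rag1 was the gene of rank 3 for Rag2 and of rank 37 for Dntt. Dntt had rank 56 for Rag1 and 270 for Rag2 there, and Rag2 had rank 24 for Rag1 and 267 for Dntt. Mad1l1 and Entpd5 stayed at rank 1 for Rag2 and Dntt. For Rag1, Sash3 had rank 4 and Il16 rank 10, while Ppp1r16b, Kdm1b and Gmcl1 had ranks 48, 52 and 71. The genes named as closest thus depend on the arrays included. For each member over the 20 arrays, genes outside the recombination pathway thus followed it more closely than the other members did.

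Genes beside the members on the chromosome gave a further comparison. Traf6 (chr2:101678420-101701668), a signalling adaptor next to Rag1, averaged 11.76 on the grafts, 10.96 on T-ALL and 10.30 on T-ALL_Rag-. It was thus lower in tumours than in grafts like the RAG genes, by -0.80 for T-ALL (limma adjusted p = 0.193) and -1.46 for T-ALL_Rag- (limma adjusted p = 0.123). On host spleen, where Rag1 was highest, Traf6 averaged 10.07 and differed from the grafts by -1.70 (SE 0.43, limma adjusted p = 0.12). Iftap, whose span overlaps that of Rag2, stayed between 7.11 and 7.57 on all arrays. Beside Dntt, Blnk, an adaptor of B cell receptor signalling, read 6.92 to 7.88. Opalin, Tll2 and Zfp518a were not above background on 2 arrays, and neither was Lrrc4c beside the RAG pair.

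The partners of the recombinase and genes of the thymocyte stages were followed with 7 lists. None of their genes passed an adjusted p of 0.05 in any of the 6 comparisons, beside the shares of all genes given above. Of the end-joining genes that seal RAG-made breaks, 7 of 11 were measured. Their median log2 difference was -0.11 for T-ALL against graft and -0.21 for T-ALL_Rag- against graft, where the median of all genes was 0.01. Xrcc6, which encodes Ku70 and binds broken ends, averaged 14.47 ± 0.31 on grafts (n = 4), 14.56 ± 0.22 on T-ALL (n = 7) and 14.55 ± 0.14 on T-ALL_Rag- (n = 3). Its levels were close to each other, with a log2 difference of 0.09 between T-ALL and graft (SE 0.30, limma adjusted p = 0.931). Paxx, a stabilizer of the Ku complex, averaged 8.91 ± 0.92, 8.26 ± 0.66 and 7.68 ± 0.18 in the same order.

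Of the DNA-bending cofactors and break-response genes, 7 of 10 were measured, with a median log2 difference of 0.08 for T-ALL and 0.34 for T-ALL_Rag- against graft. H2ax, the histone variant marked at breaks, averaged 12.48 ± 0.12 on grafts (n = 4), 12.56 ± 0.34 on T-ALL (n = 7) and 12.43 ± 0.15 on T-ALL_Rag- (n = 3). Hmgb2, a DNA-bending protein that aids RAG binding, averaged 11.76 ± 0.24, 12.01 ± 0.20 and 11.84 ± 0.52 in the same order. On host spleen Hmgb2 reached 12.87 ± 0.13 (n = 2), 1.10 above the grafts on the log2 scale (SE 0.24, limma adjusted p = 0.0697).

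The list of regulators of the Rag and Dntt loci, transcription factors and chromatin proteins, was measured for 15 of 16 genes. For T-ALL against graft 13 of the 15 were lower, with a median log2 difference of -0.28, and for T-ALL_Rag- against graft 12 of the 15 were lower, with a median of -0.29. No single gene of the list passed the test. Of all 12831 genes tested, 6125 were lower in T-ALL than in graft and 6101 in T-ALL_Rag- than in graft. Satb1, a chromatin organizer of thymocytes, averaged 14.54 ± 0.52 on grafts (n = 4), 13.78 ± 0.30 on T-ALL (n = 7) and 13.60 ± 0.20 on T-ALL_Rag- (n = 3). Its log2 difference was -0.76 for T-ALL (SE 0.35, limma adjusted p = 0.287) and -0.94 for T-ALL_Rag- (SE 0.43, limma adjusted p = 0.293). Ets1, a lymphoid transcription factor, averaged 14.32 ± 0.51, 13.49 ± 0.23 and 13.81 ± 0.24 in the same order.

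Of the 12 listed genes of the double-positive stage, 9 were measured, and 8 of the 9 were lower in T-ALL than in graft, with a median log2 difference of -0.79. For T-ALL_Rag- against graft 7 of the 9 were lower, with a median of -1.12. The lower genes among all 12831 tested numbered 6125 and 6101 in these comparisons. Cd24a, counted as higher in both, was below background on every graft and passed the filter only through other arrays. Its place in these counts is therefore not a result. Cd8b1, which encodes the CD8 beta chain, averaged 14.76 ± 0.35 on grafts (n = 4), 14.01 ± 0.68 on T-ALL (n = 7) and 13.13 ± 0.33 on T-ALL_Rag- (n = 3), where the log2 difference from graft was -1.63 (limma adjusted p = 0.194). Arpp21, an RNA-binding phosphoprotein gene high in thymocytes, averaged 13.08 ± 0.79, 12.46 ± 0.40 and 12.21 ± 0.31. Cd4, the co-receptor of helper T cells and double-positive thymocytes, was singled out after its values had been seen. It read 7.05, 7.01 and 7.07 on T-ALL_Rag-, below background on each, and 10.16, 9.37, 7.94 and 10.24 on the grafts. The log2 difference between these labels was -2.38 (SE 0.49, limma adjusted p = 0.12).

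Pre-TCR and double-negative stage 3 genes, many of them targets of Notch, had the opposite sign. All 8 were measured. In T-ALL 8 of 8 were higher than in graft, with a median log2 difference of 0.72, and in T-ALL_Rag- 8 of 8, with a median of 1.54. Of all 12831 genes tested, 6699 were higher in T-ALL and 6730 in T-ALL_Rag-. Erg and Hes5 were above background only on tumour arrays and so passed the filter only through them. Their place in these counts is therefore not a result. Both differed by 0.06 between T-ALL and graft, with graft means of 6.85 and 7.0. Dtx1, a ubiquitin ligase induced by Notch, averaged 9.09 ± 2.33 on grafts (n = 4), 11.33 ± 1.08 on T-ALL (n = 7) and 11.96 ± 0.32 on T-ALL_Rag- (n = 3). The log2 difference was 2.25 for T-ALL (SE 0.86, limma adjusted p = 0.189). Notch3, a Notch receptor of early thymocytes, averaged 9.30 ± 1.32, 10.27 ± 1.07 and 10.44 ± 0.46 in the same order.

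The TCR complex genes, 6 of 7 measured, had a median log2 difference of -0.42 for T-ALL and -0.45 for T-ALL_Rag- against graft. Cd3d and Cd3g, signalling chains of the receptor, averaged 14.35 ± 0.51 and 14.46 ± 0.34 on grafts (n = 4), 14.13 ± 0.23 and 13.92 ± 0.28 on T-ALL (n = 7) and 14.05 ± 0.12 and 14.06 ± 0.22 on T-ALL_Rag- (n = 3). The mature T cell list, 5 of 8 measured, had medians of -0.09 and -0.34. Itgb7, an integrin chain of gut homing, averaged 9.52 ± 1.42 on grafts, 10.07 ± 1.45 on T-ALL and 8.84 ± 0.50 on T-ALL_Rag-, and Klf2, a factor of mature T cell exit, averaged 9.16 ± 1.57, 9.08 ± 0.58 and 10.10 ± 0.24. Against wild-type thymus the grafts had medians of 1.99 for the double-positive genes, 2.07 for the TCR complex and 0.99 for the regulators, while the median of all genes was 0.01.

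Erythroid and granulocyte RNA varied with Rag1 and Dntt among the tumours. The erythroid list, 5 of 8 genes measured, averaged 10.08, 10.24 and 10.14 on T-ALL 1, 4 and 5, the tumours with the most Rag1 and Dntt. It averaged 13.38, 13.58, 13.92 and 12.64 on T-ALL 2, 3, 6 and 7, and 13.33, 13.50 and 13.26 on T-ALL_Rag-. The tumours with the lower Rag1 values were thus those with the higher erythroid means. The granulocyte list, 10 of 10 measured, averaged 6.92 to 6.95 on T-ALL 1, 4 and 5, which is below background, and 8.11 to 11.73 on the other tumours of both labels. The grafts differed in the same way, with erythroid means of 7.75 and 7.80 on grafts 1 and 4, 12.54 on graft 2 and 13.26 on graft 3, the graft with the least Rag1. Graft 2, however, had Rag1 at 12.24 and Dntt at 11.21 despite an erythroid mean of 12.54 and a granulocyte mean of 10.78. Rag2 did not divide the tumours in this way, since T-ALL 4 read 7.64, below T-ALL 3 at 7.96 and T-ALL 7 at 7.80. The macrophage list, 8 of 8 measured, did not divide them either, with 10.03 on T-ALL 4 beside 9.44 on T-ALL 7 and 9.39 on T-ALL_Rag- 3. The part of these cells in the differences between labels was not tested.

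Within the graft and tumour labels, the mean of 4 CD3 chains had a smaller SD than any of the 3 members. This mean was 13.61 ± 0.64 on grafts (n = 4), 13.05 ± 0.26 on T-ALL (n = 7) and 12.87 ± 0.05 on T-ALL_Rag- (n = 3). Cd247 alone had an SD of 1.21, 0.7 and 0.51 in the same order, above that of Rag2 in each label. Cd3d, at 14.35 on the grafts, lay near the largest value on any array (15.19), and compression of bright signal was not tested. The small SD therefore does not show that T cell content was constant. Between T-ALL 1 and T-ALL 6 the CD3 mean went from 13.34 to 12.83 while Rag1 went from 12.31 to 9.63. B cell progenitors, which also express these enzymes, were looked for with Vpreb1, Vpreb3 and Ebf1, whose mean was 6.83 to 7.41 over all arrays. Ebf1, which defines the B lineage, was at most 7.29, and Pax5 at most 7.36. They read 7.1 and 6.97 even on wild-type spleen 1, where the B cell gene Cd79b read 11.03. Low values of these probes therefore do not show that such cells were absent. Vpreb1, a surrogate light chain gene, was above background where Rag1 was high, at 8.27 and 8.22 on grafts 1 and 4, 8.07 on T-ALL 1 and 8.37 and 8.48 on host spleen. It was below background on the 3 T-ALL_Rag- arrays, at 7.09, 7.04 and 7.05.

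**Figure D5:**
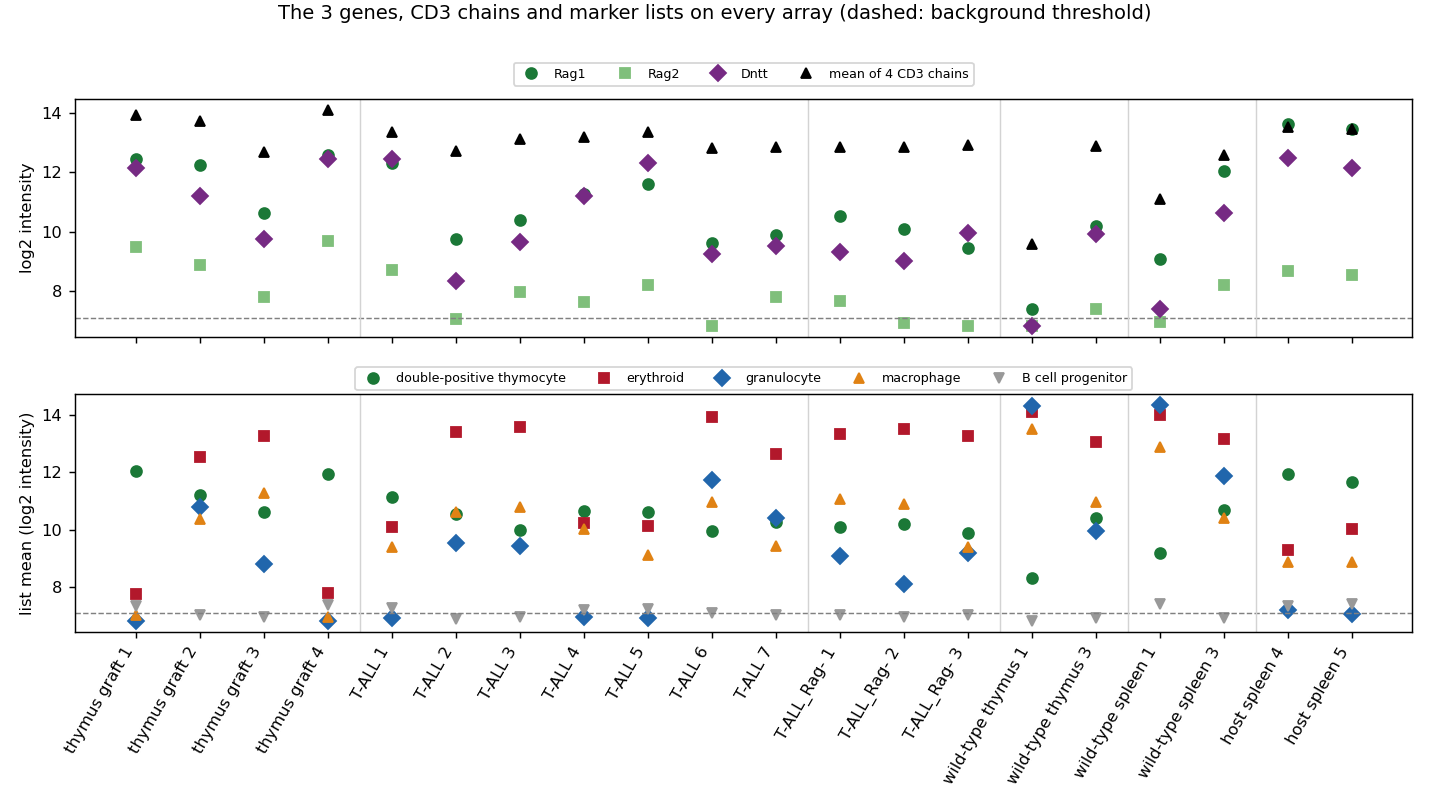
Rag1, Rag2, Dntt and the mean of 4 CD3 chains on every array in the upper panel, and the means of 5 marker lists in the lower panel, in log2 intensity with the background threshold of 7.11 dashed. T-ALL 1, 4 and 5 combine the highest Rag1 and Dntt values of the tumours with erythroid means of 10.08 to 10.24, against 12.64 or more on the other tumours.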

How the data were processed

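RNA was extracted with RNAzol B and hybridised to Illumina arrays as biotinylated cRNA, per the labels' protocols. The log2 intensities deposited by the authors, for 46089 probes on 20 arrays, were used as given. They had been quantile normalized before deposit, as the values show: after sorting, no pair of arrays was more than 0.01 apart. The software and background step are not given in the sources used here. A second table of 20 columns that matched no label was not used. Of the probes, 35667 had 1 gene symbol, 0 had several and 10422 had none, and each gene was represented by its brightest probe by mean over all arrays. Genes above background on at least 2 arrays were tested. Group, chip and replicate came from the labels.

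A limma model (version 3.58.1, R 4.3.3) with 1 mean per label was fitted to the 20 arrays (intensity trend, 14 residual degrees of freedom), with Benjamini-Hochberg adjustment over 12831 genes within each comparison at 0.05. The ± errors give the SD over arrays, and the SE belongs to the contrast. Exact permutation tests used scipy 1.17.1. The fit was checked on simulated data.

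The members and lists were chosen with earlier results of these data known. Genes named were the members, up to 4 changed or else the 2 brightest genes of each list, the 5 genes most like each member, and chromosomal neighbours. Marker genes of the other cell types are described after them. Array precision is limited by the number of arrays.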

Additional observations from a re-analysis of the deposited data

Results flagged for a closer look

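The platelet gene list averaged 9.22 on thymus graft 3, which lay apart from the other 3 grafts (6.87 to 7.04) by Dixon's test for 4 values. Chance alone sets off this test for about 1 in 20 groups. It was run on each of the 3 genes and each marker list mean, in the grafts and in T-ALL, so a single flag can arise by chance. Graft 3 also had the lowest Rag1 value of the grafts, 10.62, whose Dixon ratio of 0.827 was just under the critical value of 0.829.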

How the results depend on the processing

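Over 18 comparisons of Rag1, Rag2 and Dntt, 304 of 318 alternative values kept their sign and their side of the adjusted threshold, 7 passed it and 7 changed sign. With chip as a random block Rag2 in T-ALL_Rag- minus graft was -1.82 and passed, as did 583 genes in place of 2 (consensus correlation -0.119), and with chip as a fixed term it was -1.89 and did not pass. Leaving out 1 array at a time gave Rag2 -2.21 to -1.59 for T-ALL_Rag- minus graft and -1.60 to -0.98 for T-ALL minus graft, and for graft minus wild-type thymus 1.79 to 4.58 in Rag1, 1.56 to 2.23 in Rag2 and 1.47 to 4.56 in Dntt. For wild-type thymus minus spleen it gave -1.11 to 0.14 in Rag2 and -2.24 to 0.99 in Dntt. Signs also changed for Rag1 in T-ALL_Rag- minus T-ALL, to 0.14 with chip as a fixed term and within chip 3, and relative to CD3 chains for Rag2 in graft minus wild-type thymus (-0.52) and in wild-type thymus minus spleen (0.13). Correlations relative to CD3 chains, with the limits given for them above, were 0.44 for Rag1 with Rag2 and 0.301 for Rag2 with Dntt. Within-array Rag1 minus Rag2 after background subtraction, added after seeing the data, turned to 0.68, 1.27 and 0.60 for T-ALL_Rag- minus T-ALL, T-ALL_Rag- minus graft and T-ALL minus graft. The causes were not tested.

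Counts of genes passing ranged over all alternatives from 0 to 21 for T-ALL_Rag- minus T-ALL (0 as reported), 1 to 1114 for T-ALL_Rag- minus graft (2), 0 to 1101 for T-ALL minus graft (41), 1 to 12243 for graft minus wild-type thymus (10), 0 to 101 for host spleen minus graft (38) and 0 to 205 for wild-type thymus minus spleen (0). Wild-type thymus and spleen share the numbers 1 and 3, which the labels do not tie to animals. With the number as a replicate block the differences were -1.78 for Rag1, -0.48 for Rag2 and -0.63 for Dntt (limma adjusted p = 0.8 for each), 0 genes passed, and deviations of same-numbered arrays correlated at 0.68 across genes. The table before normalization could not be matched to labels, so that alternative was not run. Group sizes of 2 to 7 arrays and Rag2 signal near background limit what could be detected.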
